A study of Mus musculus with 18 samples.

Results

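The genes described here are 10 nuclear genes that act on whole mitochondria. They were chosen by name: *Pink1*, *Bnip3*, *Bnip3l*, *Fundc1* and *Sqstm1* serve mitophagy, the removal of mitochondria by autophagy, and *Mfn1*, *Mfn2*, *Opa1*, *Dnm1l* and *Mff* serve mitochondrial fusion and fission. All 10 were among the 55385 genes of the count table, and all 10 were among the 14979 genes with enough reads to be tested. Their levels were read in bone marrow-derived macrophages (BMDM) grown from female C57BL/6J mice aged 12 weeks, cultured with L-929 supernatant until day 7. Cells received 0.1% DMSO as vehicle (Veh), 250 µM HC3 (hemicholinium-3, which blocks choline uptake) or 5 µM RSM (RSM-932a, which blocks choline kinase) for 24 h. Naïve cells (M[0]) then went without cytokine for a further 24 h, and polarized cells (M[IL-4]) received IL-4 at 20 ng/mL over the same time. The 6 groups were Veh M[0], HC3 M[0], RSM M[0], Veh M[IL-4], HC3 M[IL-4] and RSM M[IL-4], each with 3 libraries from cells of 3 individual mice. No genetic change was made in any group, and each drug was given at 1 dose and 1 time.

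Mitophagy begins when a damaged or surplus mitochondrion is marked for capture by an autophagosome. *Pink1* encodes a kinase that gathers on depolarized mitochondria and starts their marking with ubiquitin, whereas *Bnip3*, *Bnip3l* and *Fundc1* encode receptors in the outer membrane that bind the autophagosome protein LC3 directly. *Sqstm1* encodes p62, an adaptor that links ubiquitinated cargo to LC3 and is itself degraded by autophagy. Fusion joins the outer membranes through the mitofusins (*Mfn1*, *Mfn2*) and the inner membranes through *Opa1*, while fission needs the GTPase Drp1 (*Dnm1l*) and its membrane receptor *Mff*. Transcript levels measure neither the flux through autophagy nor the shape of mitochondria.

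Each library held 17457796 to 19522255 counts, and the counts of a member in a library ran from 208 (*Bnip3*) to 43005 (*Sqstm1*). Levels are given as CPM (read pairs counted on a gene, scaled to a common library size) with TMM factors, which correct for the composition of each library. All 8 macrophage markers were detected in each group, and the summed level of the list differed between groups. It was 20280 to 21360 CPM in Veh M[0], 8707 to 9799 in HC3 M[0], 15750 to 17200 in RSM M[0], 11800 to 12150 in Veh M[IL-4], 7469 to 8657 in HC3 M[IL-4] and 10600 to 12980 in RSM M[IL-4]. Of the 8 stromal markers, *Lum* was at or near 0, and the summed level of the list, mostly *Col1a1* and *Col1a2*, was 569.6 to 962.2 CPM in Veh M[0], 1372 to 1835 in HC3 M[0] and 1095 to 1544 in RSM M[0]. Within M[IL-4] it was 315 to 720.4 CPM with Veh, 627.8 to 1160 with HC3 and 584.9 to 1120 with RSM. Dendritic cell, neutrophil and erythroid and mast cell markers each summed to under 3 CPM in all 18 libraries, and B and T cell markers to at most 6.91 CPM, led by *Cd4*. In M[0] the summed stromal level was thus higher and the summed macrophage level lower with each inhibitor, without overlap, but the single stromal markers differed in direction. Of the 7 tested, 4 rose and 0 fell with HC3 in M[0], and 2 rose (*Col1a1* by 1.13 and *Col3a1* by 1.16 on the log2 scale) and 1 fell with RSM (*Dcn* by 1.51, FDR = 7.45e-05), where *Pdgfra* was at -0.45 and *Postn* at -0.17. In M[IL-4], 3 rose and 0 fell with HC3, and 2 rose and 1, *Dcn*, fell with RSM. In M[0], 8 of the 8 macrophage markers fell with HC3 and 7 fell with RSM, while in M[IL-4] 1 rose and 7 fell with HC3, and 2 rose and 1 fell with RSM. The part of either list in the results below was not tested. In bulk RNA, fewer cells of a type and less RNA per cell cannot be told apart.

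The 250 bases before the start site are shown for the 2 members with the largest rises, *Sqstm1* and *Bnip3*. They come from RefSeq (GRCm38.p6), which had an entry for 9 of the 10 members with 13 start sites between them. Both genes lie on the minus strand, with these windows at chr11:50210821-50211070 (*Sqstm1*) and chr7:138909507-138909756 (*Bnip3*). Capitals mark an E-box, CACGTG, the motif bound by MiT/TFE and other basic helix-loop-helix factors. The sequences are written 5′ to 3′ on the strand of the gene.
Sqstm1: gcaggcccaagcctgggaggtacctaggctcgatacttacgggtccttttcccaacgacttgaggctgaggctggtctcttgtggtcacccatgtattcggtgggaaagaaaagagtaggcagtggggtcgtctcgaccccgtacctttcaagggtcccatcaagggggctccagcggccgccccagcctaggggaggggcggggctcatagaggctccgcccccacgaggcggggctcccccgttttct
Bnip3: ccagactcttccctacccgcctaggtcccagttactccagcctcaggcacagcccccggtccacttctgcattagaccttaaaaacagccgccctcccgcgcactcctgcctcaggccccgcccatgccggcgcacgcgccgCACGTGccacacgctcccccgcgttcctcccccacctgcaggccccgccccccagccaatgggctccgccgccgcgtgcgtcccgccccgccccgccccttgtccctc
The *Bnip3* window held the E-box at bases 108 to 103 before the start site. Because the E-box contains ACGTG, the core of the hypoxia response element, on both strands, that core overlapped it. Among 32851 start sites of the RefSeq table, 6.02% held CACGTG and 16.6% held ACGTG on either strand. *Mfn2* also held ACGTG before 1 of its start sites. TGACNNNGC, the core of the antioxidant response element (10.2% of start sites), and TGATGNAA, the ATF4-CHOP composite site (3.45%), were absent from these windows of the 9 members. These 4 motifs were searched with the members' levels known, and a match is a description of letters and not of binding.

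The members differed widely in level per transcript length. In Veh M[0], *Sqstm1* was the highest at 192 ± 14.3 RPKM (CPM divided by the kilobases of exon, SD, n = 3). *Bnip3l* followed at 43.0 ± 1.74 RPKM and *Pink1* at 38.7 ± 3.44 RPKM, each without overlap with its neighbours in the order. *Mfn2*, *Fundc1* and *Dnm1l* overlapped one another at 15.8, 15.7 and 15.6 RPKM, above *Opa1* at 12.1 RPKM. *Bnip3* at 8.16 RPKM and *Mff* at 7.91 RPKM also overlapped, and *Mfn1* was the lowest at 6.20 RPKM. The top of the order, *Sqstm1* then *Bnip3l* then *Pink1*, was found in each of the 6 groups. The place of *Bnip3* was not the same in each group: it was rank 10 in Veh M[IL-4] at 5.69 RPKM and rank 7 in RSM M[0] at 15.7 RPKM. The order in the middle rests on the length used, since with the longest transcript in place of all exons *Mff* moved from rank 9 to rank 5 in Veh M[0].

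**Figure D1:**
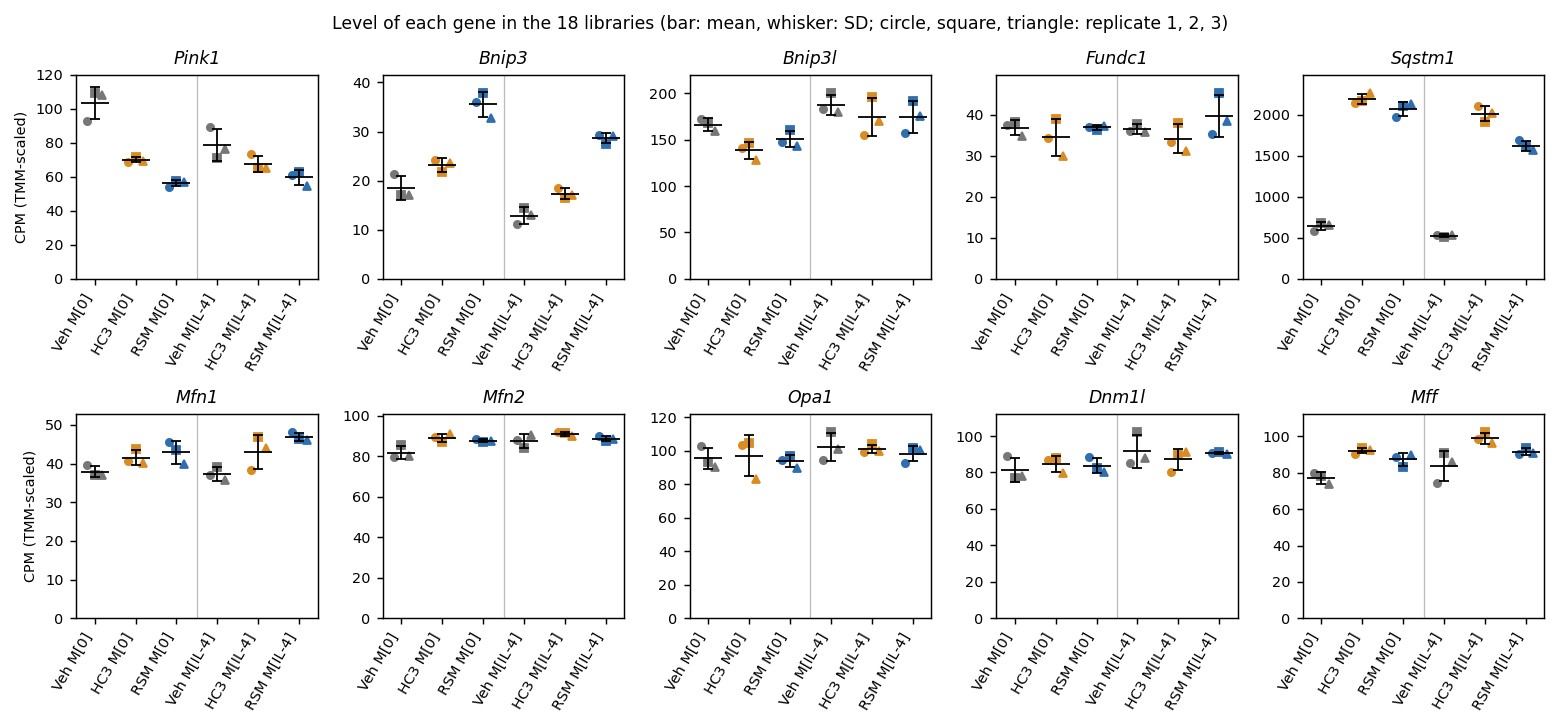
Each panel plots the CPM of 1 gene (linear axis from 0) in the 18 libraries by group, with circles, squares and triangles for replicates 1, 2 and 3, a bar for the mean and whiskers for the SD. *Sqstm1* stands at 515 to 681 CPM with Veh and at 1564 to 2262 CPM with either inhibitor, *Bnip3* is highest with RSM, *Pink1* is highest in Veh M[0], and the lower row is nearly level.

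The first question was how blocking choline uptake or choline kinase changed these genes in naïve and in IL-4-polarized cells. With HC3 in M[0], 4 members rose and 2 fell (false discovery rate, FDR, under 0.05 in edgeR's quasi-likelihood test with Benjamini-Hochberg adjustment over all tested genes). Of all tested genes 44.1% passed in that comparison, 22.6% higher and 21.5% lower. With RSM in M[0], 3 members rose and 1 fell, beside 41.1% of all genes, 20.5% higher and 20.7% lower. In M[IL-4], HC3 gave 4 higher and 1 lower beside 38.8% of all genes (18.9% higher and 19.9% lower), and RSM gave 3 higher and 1 lower beside 38.6% (20.1% higher and 18.5% lower). The members' shares of 60%, 40%, 50% and 40% were thus near the background. A change of at least 1 log2 unit was met by 1, 1, 1 and 2 members in that order, beside 12%, 11.6%, 10.3% and 11% of all genes. Because HC3 and RSM were compared with the same Veh libraries, the values of the comparisons are given side by side and are not independent of each other.

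*Sqstm1*, the autophagy adaptor p62, rose the most of the 10 members with each inhibitor. In M[0] it was at 589, 681 and 660 CPM with Veh, at 2140, 2165 and 2262 CPM with HC3, and at 1966, 2105 and 2132 CPM with RSM. The M[IL-4] cells had 541, 515 and 530 CPM with Veh, 2100, 1914 and 2016 CPM with HC3, and 1686, 1619 and 1564 CPM with RSM. The 12 libraries with an inhibitor all lay above the 6 libraries with Veh. The rise was 3.40-fold with HC3 and 3.21-fold with RSM in M[0], with log2 fold changes of 1.77 (95% interval 1.63 to 1.9, FDR = 1.37e-13) and 1.68 (1.55 to 1.82, FDR = 3.86e-13). After IL-4 it was 3.80-fold with HC3 and 3.07-fold with RSM, with log2 fold changes of 1.93 (1.79 to 2.06, FDR = 8.09e-14) and 1.62 (1.49 to 1.75, FDR = 1.04e-12). The gene lies at chr11:50199366-50210827 (GRCm38, minus strand) and shares 17.3% of its exon bases with *Mrnip* on the opposite strand. *Mrnip* itself had 3 to 25 counts in a library.

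*Bnip3*, the LC3-binding receptor best known as a target of hypoxia-inducible factor, rose with both inhibitors and more with RSM. In M[0] its level was 21.3, 17.03 and 17.1 CPM with Veh, 24.3, 21.7 and 23.6 CPM with HC3, and 36.1, 37.8 and 32.7 CPM with RSM. After IL-4 it was 11.2, 14.5 and 12.9 CPM with Veh, 18.6, 16.4 and 17.03 CPM with HC3, and 29.2, 27.4 and 29.2 CPM with RSM. Veh, HC3 and RSM did not overlap within either polarization. The rise with RSM was 1.92-fold in M[0] (log2 0.94, 95% interval 0.726 to 1.16, FDR = 5.67e-07) and 2.22-fold in M[IL-4] (log2 1.15, 0.929 to 1.38, FDR = 6.55e-08). The rise with HC3 was smaller, 1.25-fold in M[0] (log2 0.33, 0.108 to 0.547, FDR = 0.0162) and 1.35-fold in M[IL-4] (log2 0.43, 0.202 to 0.658, FDR = 0.00388). Both HC3 calls depended on the libraries fitted: the FDR rose to 0.0567 (M[0], replicate 2 left out), 0.228 (M[0], replicate 3), 0.0659 (M[IL-4], replicate 1) and 0.0586 (M[IL-4], replicate 3).

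*Bnip3* lies at chr7:138890836-138909519 (minus strand). Of its longest transcript, 68.6% has a match of at least 98% identity in other annotated genes. The genes matched include *Gm45507*, which is not a copy but lies at the same place on the opposite strand. It shares 22.3% of the exon bases of *Bnip3* and had 0 counts. The share matched by copies elsewhere was not taken apart from it. Some reads of *Bnip3* may have been counted on those copies or dropped by the study's mapping-quality filter. How many were dropped cannot be read from the counts. The tested copy, *AC160336.1*, had 4 to 26 counts in a library against at least 208 for *Bnip3*. It did not pass in any of the 4 comparisons of an inhibitor with Veh, with FDR of 0.0951 to 0.459.

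*Pink1* (chr4:138313409-138326307, minus strand), the kinase that senses depolarized mitochondria, fell with both inhibitors. In M[0] it was at 92.9, 109 and 108 CPM with Veh, at 69.0, 72.0 and 69.4 CPM with HC3, and at 54.1, 57.5 and 57.2 CPM with RSM, and the 3 groups did not overlap. With IL-4 it was at 89.2, 71.2 and 76.2 CPM with Veh, at 73.3, 65.2 and 65.0 CPM with HC3, and at 61.1, 63.1 and 54.9 CPM with RSM. There HC3 overlapped Veh and RSM did not. The fall in M[0] was 1.48-fold with HC3 (log2 -0.56, 95% interval -0.737 to -0.386, FDR = 2.3e-05) and 1.84-fold with RSM (log2 -0.88, -1.06 to -0.701, FDR = 1.05e-07). With IL-4 the fall was 1.16-fold with HC3 (log2 -0.22, -0.395 to -0.0414, FDR = 0.0478) and 1.32-fold with RSM (log2 -0.40, -0.58 to -0.225, FDR = 0.000822). The HC3 call in M[IL-4] was lost without any 1 of the replicates, with FDR of 0.0605 to 0.234, and also when only the groups compared were fitted (FDR = 0.143).

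*Bnip3l* (NIX, chr14:66985239-67008877, minus strand), the receptor that clears mitochondria from maturing red cells, fell slightly with HC3 in M[0]. It was at 172, 168 and 159 CPM with Veh, at 140, 146 and 128 CPM with HC3 and at 148, 160 and 144 CPM with RSM, and RSM overlapped both. The fall with HC3 was 0.26 on the log2 scale (FDR = 0.0175), lost without replicate 3 (FDR = 0.16). The difference with RSM in M[0] was -0.14 (FDR = 0.199), which passed with the replicate number as a block within each polarization (FDR = 0.0146). In M[IL-4] the difference was -0.11 with HC3 (FDR = 0.332), which passed with that block (FDR = 0.0464), and -0.10 with RSM (FDR = 0.364). A processed copy, *Bnip3l-ps*, matches 34.7% of its longest transcript and had 17 to 42 counts in a library. *Fundc1* (chrX:17556564-17572325, minus strand), a receptor known for hypoxia-induced mitophagy, lay between 30.1 and 45.3 CPM in all 18 libraries. Its log2 fold changes of -0.10, 0.00, -0.09 and 0.12 (HC3 and RSM in M[0], then in M[IL-4]) did not pass, and their 95% intervals reached from -0.306 to 0.33 at the widest.

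The 5 fusion and fission genes moved little. The largest of their 20 log2 fold changes against Veh was 0.33, and the widest 95% interval ended at 0.489, so a change of 1 log2 unit lay outside each interval. *Mff* (chr1:82724890-82752394, plus strand), the outer-membrane receptor for Drp1, rose in 3 of the 4 comparisons. In M[0] it was at 80.0, 78.1 and 73.6 CPM with Veh, at 90.4, 93.4 and 92.8 CPM with HC3 and at 88.8, 83.4 and 89.9 CPM with RSM, so that each inhibitor lay above Veh. After IL-4 it stood at 74.5, 90.7 and 85.8 CPM with Veh, at 98.5, 102 and 96.2 CPM with HC3 and at 90.1, 93.8 and 90.6 CPM with RSM. The log2 fold change was 0.26 (FDR = 0.00351) and 0.24 (FDR = 0.00581) with HC3 in M[0] and M[IL-4], and 0.18 (FDR = 0.0345) with RSM in M[0]. For RSM in M[IL-4] it was 0.13 (FDR = 0.127), or FDR = 0.0495 with the block. The 3 calls of *Mff* were lost without replicate 3, with FDR of 0.117, 0.0533 and 0.396 in the order given, and that of HC3 in M[IL-4] also without replicate 1 (0.0616) and that of RSM also without replicate 2 (0.055).

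*Mfn1* (chr3:32529465-32579239, plus strand), a mitofusin, rose in M[IL-4]. It was at 37.1, 39.1 and 35.7 CPM with Veh, at 38.3, 46.9 and 44.0 CPM with HC3 and at 48.1, 46.3 and 46.1 CPM with RSM, and RSM did not overlap Veh. The log2 fold change was 0.33 with RSM (FDR = 0.00198, or 0.0587 without replicate 3) and 0.21 with HC3 (FDR = 0.0393, or 0.179 without replicate 2, 0.327 without replicate 3 and 0.0531 with DESeq2). In M[0] the differences were 0.13 with HC3 (FDR = 0.179) and 0.18 with RSM (FDR = 0.0691, and 0.0317 with the block). *Mfn2* (chr4:147873599-147904704, minus strand), the other mitofusin, passed with HC3 in M[0] at 0.13 (FDR = 0.0467), a call lost with the replicate block over all libraries (FDR = 0.0588), with DESeq2 (FDR = 0.0721) and without any 1 of the replicates (FDR of 0.0862 to 0.382). Its other 3 differences were 0.10, 0.06 and 0.02. *Opa1* (chr16:29579334-29654884, plus strand), the inner-membrane fusion GTPase, and *Dnm1l* (chr16:16312230-16358959, minus strand), the fission GTPase, did not pass in any of the 4 comparisons, with differences of -0.07 to 0.06. At an unadjusted p under 0.05 and with DESeq2, as with the FDR, the number of fusion and fission genes that fell with an inhibitor was 0.

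**Figure D2:**
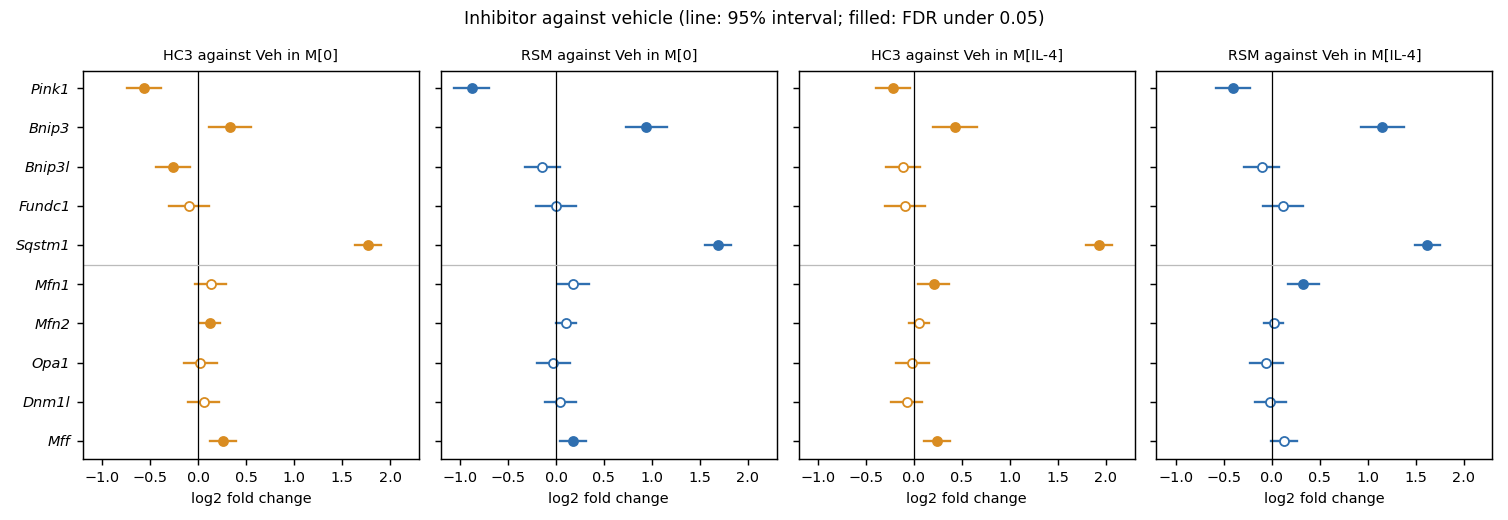
The 4 panels plot the log2 fold change of each gene with HC3 (orange) or RSM (blue) against Veh in M[0] and M[IL-4], with lines for 95% intervals, filled points where the FDR was under 0.05 and a grey line between mitophagy and fusion or fission genes. *Sqstm1* lies at 1.62 to 1.93 and *Bnip3* at 0.33 to 1.15, *Pink1* lies at -0.88 to -0.22, and the 5 fusion and fission genes lie within 0.33 of 0.

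The second question was what IL-4 did to the same genes. With Veh, 3 of the 10 members passed, beside 31% of all tested genes, and the 3 were mitophagy genes that fell. A fall was passed by 14.9% of all genes and a rise by 16.1%. *Bnip3* fell by 0.52 on the log2 scale (95% interval -0.749 to -0.294, FDR = 0.00113), *Pink1* fell by 0.39 (-0.567 to -0.216, FDR = 0.0014) and *Sqstm1* fell by 0.28 (-0.414 to -0.154, FDR = 0.00169). In each of the 3, the Veh M[IL-4] libraries lay below the Veh M[0] libraries. Those of *Bnip3l* lay above without overlap, at a log2 difference of 0.18 that did not pass (FDR = 0.128). The share of all genes without such overlap is not given. Without replicate 3 the FDR was 0.0812 for *Pink1* and 0.0885 for *Sqstm1*. The number of members that reached 1 log2 unit was 0, beside 6.66% of all genes. Of the fusion and fission genes 0 passed, and 1, *Dnm1l*, had an unadjusted p under 0.05 (log2 0.17, FDR = 0.0975), and 0 passed with DESeq2. Without replicate 1, *Dnm1l* passed at 0.27 (FDR = 0.0198) and *Mff* at 0.20 (FDR = 0.0405).

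With HC3, M[IL-4] against M[0] gave 2 members past the threshold, beside 14.7% of all genes. *Bnip3* fell by 0.42 (FDR = 0.0102) and *Bnip3l* rose by 0.33 (FDR = 0.0128), both lost without replicate 3 (0.195 and 0.237). With RSM, 2 members passed, beside 15.5% of all genes. *Sqstm1* fell by 0.35 (FDR = 0.000413, or 0.101 without replicate 3) and *Bnip3* fell by 0.31 (FDR = 0.042), the latter lost without any 1 of the replicates (FDR of 0.065 to 0.209). *Pink1* was at -0.05 with HC3 (FDR = 0.781) and at 0.08 with RSM (FDR = 0.603).

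**Figure D3:**
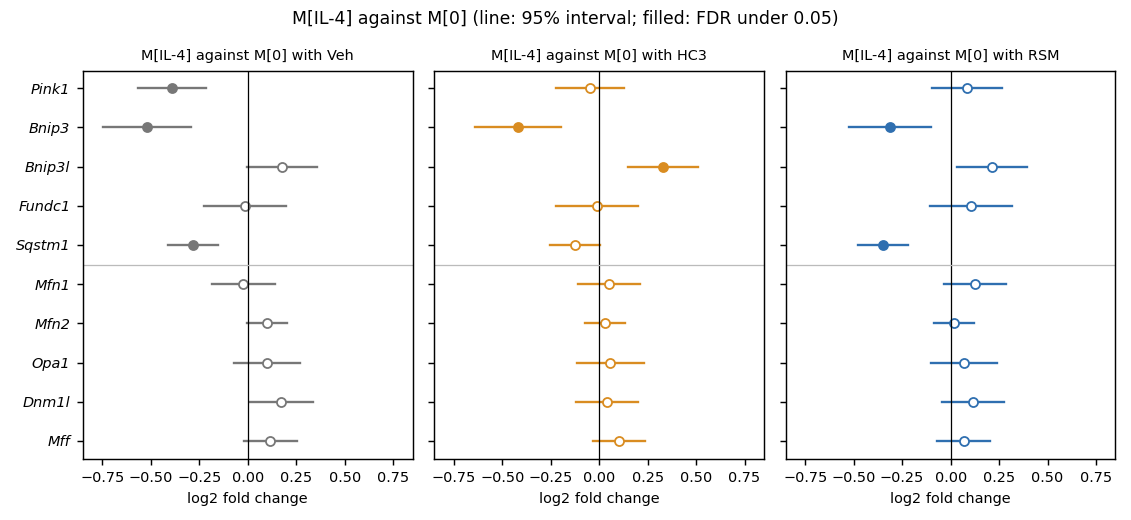
The 3 panels plot the log2 fold change of each gene in M[IL-4] against M[0] with Veh (grey), HC3 (orange) or RSM (blue), with lines for 95% intervals and filled points where the FDR was under 0.05. *Bnip3* lies at -0.52, -0.42 and -0.31, *Pink1* lies at -0.39 with Veh and near 0 with the inhibitors, and the points of the 5 fusion and fission genes are open.

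Whether the effect of an inhibitor differed between M[IL-4] and M[0] was tested with the interaction term. For RSM, *Pink1* passed at 0.48 (95% interval 0.225 to 0.726, FDR = 0.0153), beside 9.19% of all genes: its fall was 0.88 in M[0] and 0.40 in M[IL-4] on the log2 scale. The call was lost without replicate 2 (0.34, FDR = 0.205) and without replicate 3 (0.49, FDR = 0.216). For HC3, 0 of the 10 members passed with edgeR and 0 with DESeq2, and 1 had an unadjusted p under 0.05, beside 6.48% of all genes past the FDR. That member was *Pink1* at 0.34 (FDR = 0.0976), which passed with the block within each polarization (FDR = 0.00583) and without replicate 1 (FDR = 0.0349). The interaction of *Sqstm1* was 0.16 for HC3 (-0.023 to 0.343, FDR = 0.335) and -0.07 for RSM (-0.249 to 0.117, FDR = 0.755). That of *Bnip3* was 0.10 for HC3 (-0.214 to 0.419, FDR = 0.794) and 0.21 for RSM (-0.1 to 0.52, FDR = 0.474).

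HC3 and RSM act on consecutive steps, uptake of choline and its phosphorylation, and were used at different doses, so the difference between them is that of 250 µM HC3 and 5 µM RSM. In M[0], 2 members differed, beside 13.6% of all genes. *Bnip3* was lower with HC3 than with RSM by 0.62 on the log2 scale (95% interval -0.828 to -0.402, FDR = 0.000338), and *Pink1* was higher with HC3 by 0.32 (0.139 to 0.495, FDR = 0.0164). The *Pink1* call was lost when replicate 2 (0.0666) or 3 (0.173) was left out. In M[IL-4], 2 members differed beside 13% of all genes. With the block within each polarization 4 differed, and the share of all genes under that block is not given. *Bnip3* was lower with HC3 by 0.72 (-0.941 to -0.504, FDR = 8.56e-05), and *Sqstm1* was higher with HC3 by 0.31 (0.179 to 0.438, FDR = 0.00198, or 0.166 without replicate 3). *Pink1* differed by 0.18 (0.00652 to 0.363, FDR = 0.183) and *Fundc1* by -0.21 (-0.425 to -0.00485, FDR = 0.19), and both passed with the block (FDR of 0.0312 and 0.0365). The *Bnip3* copy *AC160336.1* was also lower with HC3 than with RSM in M[0], by 1.66 on the log2 scale (FDR = 0.0106). For *Sqstm1* in M[0] the difference was 0.08 (-0.0464 to 0.212, FDR = 0.44), an interval that leaves room for a small difference. The 5 fusion and fission genes differed between HC3 and RSM by at most 0.12, with 95% intervals ending within 0.281 of 0. The share of reads from the mitochondrial chromosome also differed between the drugs, with medians of 3.39% with HC3 and 0.794% with RSM in M[0] (1.77% with Veh), and 2.51%, 0.718% and 1.86% in M[IL-4]. Its part in these differences was not tested, and leaving those genes out of the library sizes changed 1 call of a member, that of *Mfn2* with HC3 in M[0] (FDR = 0.0955).

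The other genes of these pathways moved in both directions. Of 34 other mitophagy genes, 9 rose and 11 fell with HC3 in M[0], 9 and 9 with RSM in M[0], 9 and 8 with HC3 in M[IL-4], and 7 and 6 with RSM in M[IL-4]. Beside these counts, the share of all tested genes that passed was 44.1%, 41.1%, 38.8% and 38.6%, nearly evenly split between rises and falls. The median log2 fold change of the list was -0.05, -0.05, -0.01 and -0.05 in that order, beside 0.02, 0.01, 0.01 and 0.02 for all tested genes. *Rhot1* (Miro1), which tethers mitochondria to motor proteins, had the lowest FDR among those that rose. It was at 62.4 ± 3.24 CPM (SD, n = 3) in Veh M[0] and rose to 172 ± 7.49 with HC3 and 119 ± 5.37 with RSM, or by 1.47 (FDR = 1.85e-12) and 0.93 (FDR = 1.03e-09) on the log2 scale. Veh M[IL-4] cells had 60.5 ± 4.74 CPM of it, HC3 M[IL-4] cells 210 ± 5.69 and RSM M[IL-4] cells 164 ± 4.77, rises of 1.79 (FDR = 2.02e-13) and 1.44 (FDR = 5.05e-12). *Optn* of the same list, encoding optineurin, a ubiquitin-binding autophagy receptor like p62, rose by 1.18, 0.73, 1.23 and 0.95 in the same order, the highest FDR being 1.95e-06. *Nbr1*, another ubiquitin-binding receptor, fell by 0.48, 0.41, 0.29 and 0.25. *Calcoco1*, an autophagy receptor, fell by 0.47 and 0.67 in M[0] and by 0.29 with RSM in M[IL-4], and was at -0.14 with HC3 there (FDR = 0.177). *Fundc2*, the paralog of *Fundc1*, fell by 0.39, 0.45, 0.51 and 0.47. *Atp5if1*, the inhibitor of the mitochondrial ATP synthase, fell with RSM (by 0.32 in naïve and 0.51 in polarized cells) and was at -0.10 and -0.20 with HC3 (FDR of 0.44 and 0.11). These genes were named by direction, and *Optn* after its values were seen. That both directions occur among them follows from this choice and says nothing of receptors as a class.

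With IL-4 in Veh cells, 3 of the 34 rose and 5 fell, beside 16.1% and 14.9% of all genes. *Fbxl4*, whose protein restrains BNIP3 and NIX by driving their degradation, was at 17.9 ± 1.25 CPM in Veh M[0] and fell to 5.75 ± 0.305 CPM in Veh M[IL-4], by 1.64 on the log2 scale (FDR = 4.04e-09). In M[IL-4] it rose with HC3 by 1.15 (FDR = 3.15e-07) and with RSM by 1.47 (FDR = 9.47e-09). In M[0] it was at 0.11 with HC3 (FDR = 0.417) and rose by 0.34 with RSM (FDR = 0.0146). *Phb2*, an inner-membrane receptor for LC3, rose with IL-4 by 0.41 (FDR = 0.000417) and with HC3 in M[0] by 0.32 (FDR = 0.00205), and its other 3 differences from Veh (-0.09 to 0.18) did not pass.

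Of the other fusion and fission genes, 23 of 24 were tested. With HC3 and RSM in M[0], 12 and 10 rose and 2 and 3 fell, and in M[IL-4] 6 and 9 rose and 3 and 4 fell. Of all genes, 22.6% and 20.5% rose and 21.5% and 20.7% fell in M[0], and 18.9% and 20.1% rose and 19.9% and 18.5% fell in M[IL-4]. The median was 0.22, 0.09, 0.11 and 0.02, against 0.02, 0.01, 0.01 and 0.02 for all genes. *Spire1*, an actin nucleator with an isoform at mitochondrial division sites, was at 36.1 ± 1.90 CPM in Veh M[0] and rose to 87.7 ± 2.65 with HC3 and 80.5 ± 2.17 with RSM. It rose by 1.28, 1.16, 1.34 and 1.21 on the log2 scale in the 4 comparisons, with the highest FDR at 5.94e-10. *Mtfr2*, a fission regulator, was at 8.03 ± 1.41 CPM in Veh M[IL-4] and fell by 1.36 with HC3 (FDR = 7.69e-06) and by 2.23 with RSM (FDR = 2.88e-08). In M[0] it fell by 0.69 with RSM and was at -0.13 with HC3 (FDR = 0.626). *Tmem135*, a regulator of fission, fell in M[0] by 0.42 with HC3 and 0.33 with RSM, and was at -0.12 and -0.02 in M[IL-4] (FDR of 0.235 and 0.865). Of the 23, 3 rose and 2 fell with IL-4 in Veh cells, beside 16.1% and 14.9% of all genes. *Miga2* and *Miga1*, which promote fusion, were named as the rise and the fall with the lowest FDR there. *Miga2* rose by 0.75 (FDR = 6.56e-06) and *Miga1* fell by 0.75 (FDR = 0.000343). With the inhibitors, *Miga2* rose by 0.27 with HC3 in M[0], was at -0.04 with RSM there, and fell by 0.44 and 0.57 in M[IL-4]. *Miga1* fell by 0.58 and 0.50 in M[0] and by 0.51 with HC3 in M[IL-4], and was at 0.01 with RSM there.

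**Figure D4:**
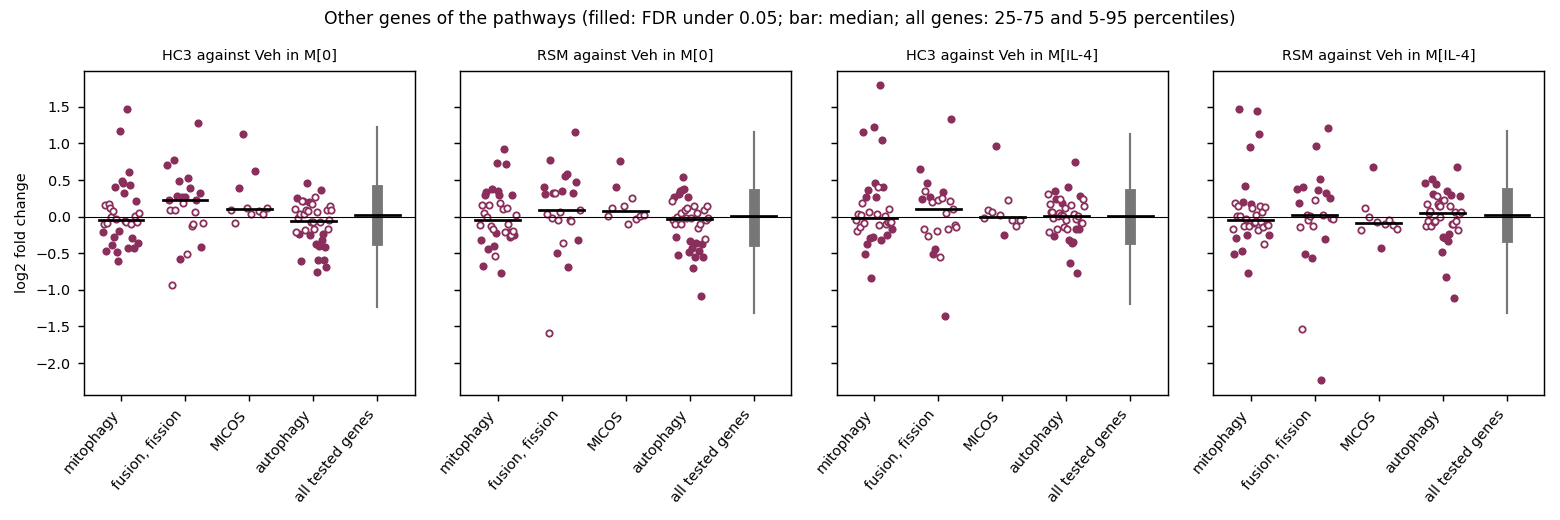
The 4 panels plot the log2 fold change against Veh of each tested gene of 4 lists (34 mitophagy, 23 fusion and fission, 10 MICOS and 38 core autophagy genes, the 10 members left out), filled where the FDR was under 0.05, with a bar at each list's median. The last column gives all 14979 tested genes (thick bar for percentiles 25 to 75, thin line for percentiles 5 to 95), and the list medians lie between -0.09 and 0.22.

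Of 10 genes for the MICOS complex and its partners, which shape the cristae of the inner membrane as *Opa1* also does, 3 and 2 rose with HC3 and RSM in M[0], beside 22.6% and 20.5% of all genes. In M[0] 0 fell, beside 21.5% and 20.7% of all genes, and 0 also at an unadjusted p under 0.05 and with DESeq2. In M[IL-4], 1 rose and 1 fell with each drug. Beside this, 18.9% and 20.1% of all genes rose and 19.9% and 18.5% fell with HC3 and RSM. With RSM in M[IL-4], 2 fell at an unadjusted p under 0.05 and 2 with DESeq2. *Chchd6* rose in M[IL-4] by 0.97 and 0.68 (and by 1.13 and 0.76 in M[0]). *Micos10* fell in M[IL-4] by 0.25 and 0.43 (0.04 and -0.10 in M[0], not passing). With IL-4 in Veh cells, 6 of the 10 rose, beside 16.1% of all genes, and 0 fell, beside 14.9% (0 also at an unadjusted p under 0.05 and with DESeq2). The list's median was 0.27 beside -0.01 for all genes, and *Micos10* rose by 0.48 (FDR = 6.12e-05). Of 38 core autophagy genes, 5 rose and 12 fell with HC3 in M[0], and 7 rose and 12 fell with RSM. In M[IL-4], 6 rose and 8 fell with HC3, and 9 rose and 7 fell with RSM. The shares of all genes that passed were again 44.1%, 41.1%, 38.8% and 38.6%, and the list's median was -0.06, -0.03, 0.01 and 0.05 beside 0.02, 0.01, 0.01 and 0.02 for all genes. *Tfeb*, a transcription factor that drives lysosomal and autophagy genes, among them *Sqstm1*, fell by 0.59, 1.09, 0.77 and 1.12 in the order above, from 68.8 ± 8.49 CPM in Veh M[0] and 104 ± 2.98 CPM in Veh M[IL-4]. *Mitf*, a factor of the same family, fell by 0.76, 0.70, 0.63 and 0.83, and rose with IL-4 by 0.97 (FDR = 3.08e-07), as *Tfeb* did by 0.59 (FDR = 8.73e-05). *Ulk2*, a kinase that starts autophagy, fell by 0.68 and 0.56 in M[0] and by 0.17 with HC3 in M[IL-4], and was at -0.06 with RSM there (FDR = 0.439). *Rubcn*, a brake on autophagosome maturation, rose with HC3 (by 0.37 in naïve and 0.74 in polarized cells) and with RSM in M[IL-4] (by 0.30), and was at -0.16 with RSM in M[0] (FDR = 0.111). *Atg3*, the enzyme that joins LC3 to lipid, rose by 0.21, 0.35, 0.24 and 0.31 in the 4 comparisons. *Uvrag*, which promotes autophagosome maturation, rose by 0.28 with HC3 and 0.68 with RSM in M[IL-4], and was at 0.09 with either drug in M[0] (FDR of 0.309 and 0.322). With IL-4 in Veh cells, 3 of the 38 rose and 12 fell, beside 16.1% and 14.9% of all genes, *Ulk2* by 0.76 (FDR = 3.13e-09).

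The genes whose log2 CPM ran most closely with a member over the 18 libraries, among 10974 genes averaging at least 50 counts, were read as a description, since the libraries fall into 6 groups that set much of the likeness. For *Sqstm1* they were *Acot2* (Pearson r = 0.993), a mitochondrial acyl-CoA thioesterase, and *Hipk1* (0.992). For *Bnip3* it was *Atp8b4* (0.972), and for *Pink1* they were *Abhd12* (0.962) and *Calcoco1* (0.958). For *Opa1* they were *Bud31* (0.847) and *Utp6* (0.838), and for *Fundc1* *Zfp455* (0.868) and *Txndc16* (0.846). For *Bnip3l* they were *Clec4a3* (0.926) and *Cd84* (0.924), both genes of myeloid surface proteins, for *Mfn2* *Alg3* (0.931) and *Eno3* (0.922), and for *Mff* *Ppp3r1* (0.911) and *Eif1a* (0.908). For *Mfn1* they were *Slc25a51* (0.899) and *Arl5b* (0.886), and for *Dnm1l* *Srsf10* (0.896) and *Aida* (0.885). Among the members themselves, r with *Pink1* ran from -0.724 for *Mfn1* and -0.712 for *Sqstm1* to 0.138 for *Bnip3l*.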

How the data were processed

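Poly-T-selected mRNA of 18 macrophage libraries (6 groups of 3) was sequenced. The deposited values are raw counts of read pairs on exons per Ensembl gene. Per the study's methods, the authors used fastp for trimming, STAR (local alignment, GRCm38) for mapping, a mapping-quality filter, Picard for marking duplicates, which were kept, and featureCounts of Subread for counting. Tool versions, annotation release and strand setting are not given in the sources used here, so reads of genes on opposite strands may not be separated. Groups came from the sample labels. Symbols, positions and exon lengths came from the GENCODE annotation of GRCm38, which matched 55144 of 55385 genes.

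A gene was tested if 2 or more libraries had a count of 10 or higher, which left 14979 genes. The test was the quasi-likelihood F test of edgeR 4.0.16 under R 4.3.3 on TMM-scaled counts, with 1 model for the 18 libraries, 1 coefficient for each group, and the replicate number left out. FDR is the Benjamini-Hochberg adjusted p over all tested genes. "Rose", "fell" and "passed" mean an FDR under 0.05, and a stricter count also needed 1 log2 unit. CPM used TMM-scaled library sizes, and RPKM divided CPM by the kilobases of all exons of a gene joined. Alternatives were DESeq2 1.42.0, other filters, scalings, sample sets and replicate blocks, and leaving out each replicate number. The edgeR fit, the edgeR fit with a replicate block over all libraries and DESeq2 were tried on simulated counts. The known changes lay in HC3 against Veh in M[0], and the other steps were not tried on simulated counts. Near-identical copies were sought with blastn 2.17.0 (at least 98% identity over at least 100 bases). Single values of 3 against 3 libraries were not tested by permutation, since an exact two-sided test cannot go below p = 0.1 there.

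The labels give replicate numbers and 3 individual mice, but do not say that a number marks a mouse. Deviations from the group means of same-numbered libraries correlated at 0.11 to 0.372 within a polarization (18 of 18 pairs above 0.1), and above 0.1 in 12 of 27 pairs across polarizations. Among libraries with different numbers, 1 of 36 pairs within a polarization and 10 of 54 across were above 0.1. The number was taken to pair libraries within a polarization. Whether it also pairs them across polarizations is not settled by these values. The block within each polarization is given where it changed a call. Replicates of a group differed by more than sampling noise (chi-square per gene of 6.3 to 20.3). Where libraries came from 1 culture, p-values measure only their spread.

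The 10 members, the gene lists and the tests were chosen with earlier results of these data known. Genes named beside the members are, per list, direction and comparison, the gene with the lowest FDR among those that passed, the 2 genes most like each member, and cell type markers. *Optn*, near-identical copies and values of a named gene in other comparisons were added after values were seen. A gene that these rules would name is not reported here.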

Additional observations from a re-analysis of the deposited data

Results flagged for a closer look

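1 result differed between groups by a test of the difference itself: the effect of RSM on *Pink1* in M[IL-4] minus that in M[0] was 0.48 on the log2 scale (interaction term in edgeR, FDR = 0.0153), with a fall of 0.88 in M[0] and of 0.40 in M[IL-4]. The *Pink1* libraries of the 2 RSM groups overlapped (54.1 to 57.5 CPM in M[0] and 54.9 to 63.1 CPM in M[IL-4]), while those of the 2 Veh groups did not (92.9 to 109 CPM and 71.2 to 89.2 CPM). Groups of 3 libraries were not searched for single outlying libraries.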

How the results depend on the processing

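Over 69 values of single members and 742 alternatives of them, 668 kept their direction and side of the threshold, 45 lost the call, 13 gained one and 16 turned in direction. The rises of *Sqstm1* with either inhibitor, the rises of *Bnip3* with RSM and the falls of *Pink1* with RSM kept their calls under each alternative run. No scaling moved the median of all genes by over 0.1, but scaling by library size alone changed calls of small differences. It lost 1 call, *Pink1* with HC3 in M[IL-4] (FDR = 0.143), and gained 3. These were *Mfn1* (FDR = 0.0147) and *Mfn2* (FDR = 0.0223) with RSM in M[0] and *Mff* with RSM in M[IL-4] (FDR = 0.0175). The number of members past the threshold with HC3 in M[IL-4] was 3 when only the groups compared were fitted and 3 without the count filter, which also gave 1 for IL-4 with RSM. With the replicate block within each polarization it was 1 for the HC3 by IL-4 interaction and 4 for HC3 against RSM in M[IL-4]. No value under that block is given for M[IL-4] against M[0], a comparison that lies between its blocks. A block over all libraries, which treats numbers as paired across polarizations too, changed 2 calls of single members: *Mfn2* with HC3 in M[0] (FDR = 0.0588) was lost, and *Bnip3l* with IL-4 in Veh cells (FDR = 0.0368) was gained. Without 1 replicate number, the members passing numbered 2 to 5 with HC3 in M[0], 1 to 3 with HC3 in M[IL-4], 1 to 5 for IL-4 with Veh, 0 to 2 for IL-4 with HC3, 0 to 1 for IL-4 with RSM, 0 to 1 for each interaction, and 1 to 2 for HC3 against RSM in either polarization. Those past 1 log2 unit with RSM in M[0] numbered 1 to 2. The shares of all genes under these alternatives are not given, so these counts cannot be set against a background. Leaving out replicate 3 cost 19 calls, replicate 2 cost 8 and replicate 1 cost 5, with fewer libraries in each fit. The values that turned in direction had an FDR of at least 0.563 and were small. For *Fundc1* with RSM in M[0] they were -0.0003071 with DESeq2 and -0.008012 without mitochondrial genes, and for *Fundc1* with IL-4 in Veh cells 0.00163 without the count filter. *Mfn2* with RSM in M[IL-4] was at -0.002541 without mitochondrial genes. Scaling by library size alone gave 0.02949 for *Opa1* with RSM in M[0], 0.03482 for *Opa1* with HC3 in M[IL-4] and 0.0383 for *Dnm1l* with RSM in M[IL-4]. Without 1 replicate number, the log2 differences ranged from -0.1162 to 0.007747 for *Pink1* (IL-4 with HC3), -0.0996 to 0.2565 for *Bnip3* (HC3 by IL-4), -0.04951 to 0.0286 for *Fundc1* (RSM in M[0]) and -0.0117 to 0.04581 for *Mfn2* (RSM in M[IL-4]). For *Opa1* they ranged from -0.06614 to 0.08442 (HC3 in M[0]), -0.07809 to 0.01583 (RSM in M[0]) and -0.05244 to 0.02451 (HC3 in M[IL-4]), and for *Dnm1l* from -0.02194 to 0.09134 (HC3 in M[0]) and -0.0587 to 0.05069 (RSM in M[IL-4]). The cause of these changes was not tested. With 3 libraries a group, the standard error of a difference between groups in a member was 0.0492 to 0.109 log2 units, which limits what was detectable.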
